A study of Homo sapiens with 8 samples.

Results

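The genes described here are 9 members of the Notch pathway, namely the receptors NOTCH1, NOTCH2 and NOTCH3, the DNA-binding factor RBPJ, the target genes HES1, HES4 and HEY1, and DTX1 and NRARP, which are both targets and modulators. They were chosen by symbol, with every probe set of the array annotated to that gene alone, which gave 19 probe sets for the 9 genes of 19775 genes on the array. RNA came from 8 cultures on Affymetrix HG-U133 Plus 2.0 arrays, which read each transcript with sets of short oligonucleotides. The cultures were of 2 human cell lines of the B lineage, labelled SUP-B8 and NALM-6. GSK126 at 0.5 uM, an inhibitor of the histone H3 lysine 27 methyltransferase EZH2, was given for 72 hours to 2 cultures of each line, and 2 cultures of each line received the vehicle DMSO for the same time. The labels call the replicates biological and do not give the EZH2 genotype of either line.

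Notch receptors are cell-surface proteins that are cut by ADAM proteases and then by gamma-secretase once a ligand on a neighbouring cell has bound. The freed intracellular part enters the nucleus, joins RBPJ and a Mastermind coactivator, and switches on genes such as HES1. Without it, RBPJ recruits corepressors to the same sites. In lymphoid cells, NOTCH1 directs precursors to the T-cell fate, and NOTCH2 is needed for marginal zone B cells.

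The B-lineage markers with a probe set lay above the array medians on all arrays of both labels (5 of 5), and the 5 myeloid markers lay above them on none. All 9 early B-cell markers lay above the medians on the 4 arrays labelled SUP-B8, and 2 of 9 did so on the 4 labelled NALM-6. DNTT, the terminal transferase of immature lymphocytes, ranged over 13.50 to 13.76 (log2) on arrays labelled SUP-B8 and over 6.56 to 6.89 on those labelled NALM-6, a line commonly described as DNTT-positive. Of the 7 mature B-cell markers with a probe set, 3 lay above the medians on all 4 arrays labelled SUP-B8 and 6 on all 4 labelled NALM-6. Among them CCR7, a chemokine receptor of lymphocytes, ranged over 5.38 to 5.89 on arrays labelled SUP-B8 and over 12.57 to 12.91 on those labelled NALM-6. The names SUP-B8 and NALM-6 are therefore those of the labels only. Whether the labels of the lines are exchanged was not tested, and if they were, each line difference given here would change its sign and each response would belong to the other line. The T-cell markers CD3D, CD3E, CD5, CD7, CD247 and PTCRA, 6 of the 9, also lay above the medians on every array. So did 4 of the 5 stroma and endothelium markers, among them COL1A1, with group means between 9.45 and 9.58. A level above the median therefore does not by itself show that a transcript was present.

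Values are the deposited log2 levels, in which array medians lay between 7.18 and 7.24. A group with both arrays below their medians is not shown to be above background, and against it only a lower limit is given, the other group's mean minus the medians of the dim group's arrays, written as at least that much. Such a limit is a difference of means and carries no SE. Differences are log2, with the standard error (SE) of a limma fit to all 8 arrays, and p-values were adjusted over the 13161 genes that passed a filter on dim probe sets. A gene is said to be called at an adjusted p under 0.05. HES4 did not pass that filter, so 8 of the 9 genes were tested. HES1 passed it only through its 2 NALM-6-labelled DMSO arrays, so it had to differ there. The low HES1 value under GSK126 in arrays labelled NALM-6 was known when the family was proposed. Differences between treatments in those arrays are therefore given as descriptions, without p-values, for all 9 genes. Where calls of the fit for these genes in those arrays are named below, they too are descriptions.

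HES1 encodes a basic helix-loop-helix repressor and is the best-known direct target of Notch. Its regulatory sequence is shown because its transcript moved most, and that of its relative HES4 because that gene stayed dim on every array. Each line gives the 250 bases before the RefSeq start (GRCh38.p14), written along the gene's strand, with capitals for TGGGAA, the core of the RBPJ motif, found on either strand. The HES1 window is chr3:194135898-194136147 on the plus strand and the HES4 window is chr1:1000098-1000347 on the minus strand.
HES1: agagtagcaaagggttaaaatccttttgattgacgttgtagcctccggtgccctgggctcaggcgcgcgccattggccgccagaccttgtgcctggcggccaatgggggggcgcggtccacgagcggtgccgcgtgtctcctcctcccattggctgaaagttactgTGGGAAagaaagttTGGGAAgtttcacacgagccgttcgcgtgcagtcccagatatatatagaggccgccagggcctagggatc
HES4: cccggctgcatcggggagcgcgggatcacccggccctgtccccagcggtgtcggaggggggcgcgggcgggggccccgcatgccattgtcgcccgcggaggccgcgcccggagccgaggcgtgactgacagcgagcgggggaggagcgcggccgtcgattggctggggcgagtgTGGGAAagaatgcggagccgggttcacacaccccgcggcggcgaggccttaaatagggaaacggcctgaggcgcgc

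The HES1 window held 2 core matches, beginning 84 and 70 bases before the start, and the HES4 window held 1, beginning 76 bases before it. Of 34943 windows of the same length in the RefSeq table, 20.9% held at least 1 match to TGGGAA and 2.89% held at least 2. The longer form GTGGGAA, which overlaps the core, occurred once in each of both windows and in 5.41% of all windows. Both genes share the 12-base run tgTGGGAAagaa around it. CACNAG, the N box that HES proteins bind, matched at 3 places in the HES1 window, at none in that of HES4, and in 32.1% of all windows. Windows of NOTCH1, NOTCH2, NOTCH3 and NRARP held no TGGGAA, and 1 of the 5 RBPJ windows held 2. A match shows only that the letters are present.

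HES1 lay above the array medians in a single group, the NALM-6-labelled cultures kept with DMSO. On its brightest probe set, 203394_s_at, the level was 5.65 and 5.73 in SUP-B8 GSK126 arrays and 5.28 and 5.45 in SUP-B8 DMSO arrays. The same probe set read 6.22 and 6.05 in NALM-6 GSK126 arrays and 8.10 and 8.50 in NALM-6 DMSO arrays. Only the last 2 arrays lay above their medians, and no array of another group reached them. Their mean of 8.30 was near that of the T-cell marker CD3E in the same arrays, 8.25. The level alone therefore does not show that HES1 transcript was present, and only the difference between groups is described. In RNA of whole cultures, fewer cells with the transcript and less of it per cell cannot be told apart. The difference in arrays labelled NALM-6 was -2.16 ± 0.13 (GSK126 minus DMSO), which shows only that HES1 was lower by at least 1.07, since both GSK126 arrays lay below the medians.

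The probe set 203395_s_at gave HES1 the same order at a smaller size. It read 6.27 and 6.42 in NALM-6 GSK126 arrays, against 7.41 and 7.58 in NALM-6 DMSO arrays, a difference of -1.15 ± 0.18 and of at least 0.26 in size. The remaining HES1 probe set, 203393_at, lay below the medians on all 8 arrays, between 6.13 and 6.56, so no size is given for it. In arrays labelled SUP-B8, all 3 probe sets lay below the medians under both treatments. The brightest did not pass the test there (limma, adjusted p = 0.250).

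**Figure D1:**
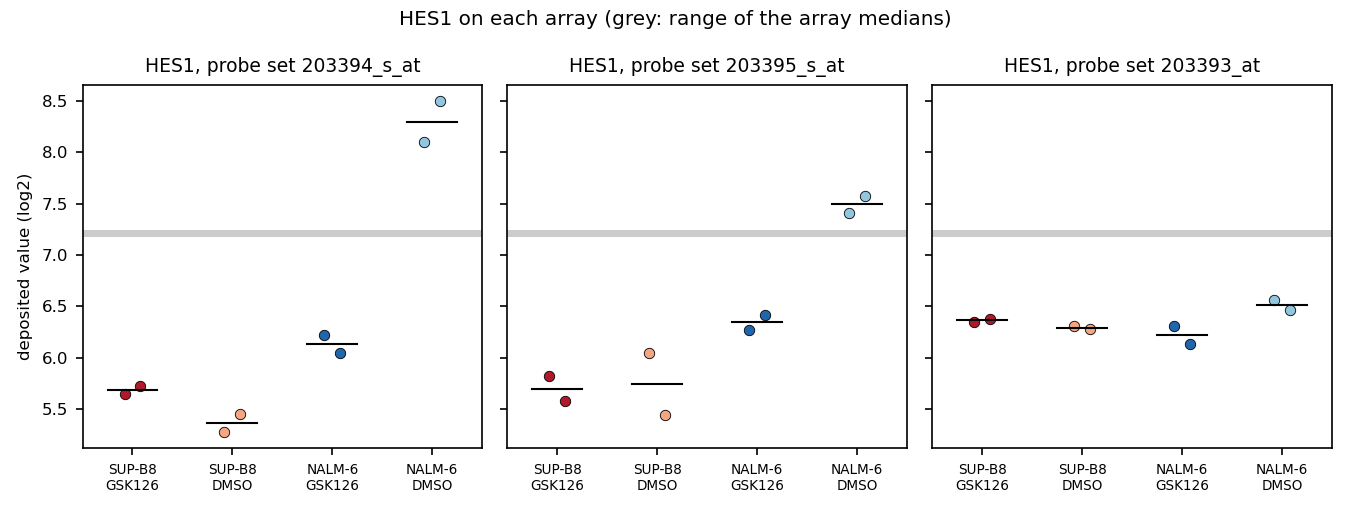
HES1 level on each array for its 3 probe sets (y axis, deposited log2 value), by labelled line and treatment. Points are arrays, black lines are means of 2 arrays, and the grey band is the range of array medians, 7.18 to 7.24. The 2 NALM-6 DMSO arrays stand above the band on 2 probe sets, and all other arrays lie below it.

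Under DMSO, HES1 averaged 5.36 ± 0.12 in arrays labelled SUP-B8 and 8.30 ± 0.28 in those labelled NALM-6 (SD, n = 2 each). It was thus lower by at least 1.09 in arrays labelled SUP-B8. On 203395_s_at it was lower there by at least 0.29. Both values are descriptions without p-values, since the HES1 response known beforehand rests on the same NALM-6 DMSO arrays. Dropping the filter does not remove that choice. Tested over all 54675 probe sets with no filter, limma called 43.6% of all probe sets between the lines under DMSO.

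HES4, a related repressor present in humans and absent from the mouse genome, lay below the medians on all 8 arrays. Its single probe set read between 6.52 and 6.84, so no size of a difference is given. HEY1, a Notch target of the HES-related family, had 2 probe sets. On the brighter, arrays labelled SUP-B8 read 7.51 and 7.98 with GSK126 against 7.67 and 7.76 with DMSO. Arrays labelled NALM-6 read 7.84 and 8.05 with GSK126 against 7.81 and 7.74 with DMSO. The SUP-B8 treatments overlapped, with 0.03 ± 0.14 (limma, adjusted p = 0.930).

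The other HEY1 probe set, 44783_s_at, read 7.47 and 7.48 in NALM-6 GSK126 arrays, against 7.01 and 6.98 in NALM-6 DMSO arrays. It was higher with GSK126 by at least 0.28, measured against the array medians. In arrays labelled SUP-B8 it read 7.16 and 7.25 with GSK126 against 6.94 and 6.98 with DMSO. Both DMSO arrays lay below the medians there and the lower limit did not exceed 0, so no size is given, and the probe set did not pass the test (limma over all probe sets, adjusted p = 0.200). On the brighter HEY1 probe set the difference in arrays labelled NALM-6 was 0.17 ± 0.14. The T-cell marker CD3E averaged 8.27 with GSK126 and 8.25 with DMSO there, above both HEY1 probe sets. These HEY1 levels therefore do not show that the transcript was present, and no contrast with HES1 is drawn.

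RBPJ, the factor through which all Notch receptors act on DNA, was high in both lines and separated them. Its brightest probe set, 211974_x_at, read 12.08 and 12.05 in SUP-B8 GSK126 arrays and 11.99 and 12.12 in SUP-B8 DMSO arrays. It read 11.64 and 11.64 in NALM-6 GSK126 arrays and 11.17 and 11.29 in NALM-6 DMSO arrays. The SUP-B8 treatments overlapped, and every array labelled SUP-B8 lay above every array labelled NALM-6. Under DMSO the line difference was 0.82 ± 0.06 (SUP-B8 minus NALM-6, limma, adjusted p = 4.65e-06). The response of arrays labelled SUP-B8 was 0.01 ± 0.06 (limma, adjusted p = 0.938).

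In arrays labelled NALM-6 RBPJ was higher with GSK126 by 0.41 ± 0.06, while HES1 was lower in the same arrays. A further RBPJ probe set, 207785_s_at, gave 0.38 ± 0.08 there and a line difference of 0.86 ± 0.08. The remaining probe set, 229540_at, ran the other way in both: it read 6.90 and 7.01 in NALM-6 GSK126 arrays, both below the medians, against 7.28 and 7.49 in NALM-6 DMSO arrays. Its 2 NALM-6 DMSO arrays were its only ones above the medians. The mean of the 3 probe sets was 0.12 higher with GSK126 in arrays labelled NALM-6.

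Of the receptors, NOTCH2 was higher with GSK126 in both lines. Its brightest probe set, 202443_x_at, read 9.89 and 9.85 in SUP-B8 GSK126 arrays, against 9.63 and 9.57 in SUP-B8 DMSO arrays. In arrays labelled NALM-6 it read 10.08 and 10.07 with GSK126, against 9.65 and 9.69 with DMSO. The treatments did not overlap in either line. NOTCH2 rose by 0.27 ± 0.05 in arrays labelled SUP-B8 (limma, adjusted p = 0.0366), and it was higher by 0.40 ± 0.05 in those labelled NALM-6. It was the only tested gene of the family called in arrays labelled SUP-B8, 1 of 8, where 2.25% of all genes were called and 1.91% were called higher.

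That NOTCH2 call was lost on leaving out any single array (adjusted p between 0.0520 and 0.236), and with the mean of its 4 probe sets the difference was 0.13 (limma, adjusted p = 0.230). The probe set 212377_s_at gave 0.29 ± 0.07 in arrays labelled SUP-B8 and 0.44 ± 0.07 in those labelled NALM-6. The probe set 210756_s_at gave 0.00 ± 0.10 and 0.09 ± 0.10 in the same order, and the last lay below the medians on all 8 arrays. Under DMSO the lines did not pass the test for NOTCH2, at -0.07 ± 0.05 (SUP-B8 minus NALM-6, limma, adjusted p = 0.232). NOTCH2 has near-identical partial copies in the human genome, the NOTCH2NL genes, so the signal of a probe set can mix them.

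NOTCH1 moved little. Its brighter probe set, 218902_at, read 8.41 and 8.36 in SUP-B8 GSK126 arrays, against 8.15 and 8.29 in SUP-B8 DMSO arrays. In arrays labelled NALM-6 it read 8.62 and 8.66 with GSK126, against 8.44 and 8.46 with DMSO. The treatments did not overlap in either line, and the differences were 0.17 ± 0.06 in arrays labelled SUP-B8 (limma, adjusted p = 0.215) and 0.19 ± 0.06 in those labelled NALM-6. Under DMSO NOTCH1 was lower in arrays labelled SUP-B8, at -0.24 ± 0.06 (limma, adjusted p = 0.00673), a call lost with the mean of its probe sets (-0.11, adjusted p = 0.0815). Its other probe set, 223508_at, differed by 0.03 ± 0.07 between the lines and lay between 7.40 and 7.61 on all arrays.

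NOTCH3 read between 7.50 and 7.79 on its brighter probe set, with overlapping treatments in both lines. The differences were -0.01 ± 0.10 in arrays labelled SUP-B8 (limma, adjusted p = 0.984) and 0.11 ± 0.10 in those labelled NALM-6. The other NOTCH3 probe set lay below the medians on all arrays. The T-cell marker CD3E was brighter in every group, with group means between 8.12 and 8.27. These NOTCH3 levels therefore do not show that the transcript was present.

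DTX1, a Deltex E3 ubiquitin ligase that binds the intracellular part of Notch, separated the lines. It read 10.64 and 10.67 in SUP-B8 GSK126 arrays and 10.83 and 10.75 in SUP-B8 DMSO arrays. It read 11.28 and 11.35 in NALM-6 GSK126 arrays and 11.23 and 11.21 in NALM-6 DMSO arrays. All arrays labelled SUP-B8 lay below all those labelled NALM-6, with -0.42 ± 0.05 under DMSO (limma, adjusted p = 9.82e-05). With GSK126, arrays labelled SUP-B8 differed by -0.14 ± 0.05 (limma, adjusted p = 0.252) and those labelled NALM-6 by 0.10 ± 0.05.

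NRARP, an ankyrin-repeat protein that is induced by Notch and limits the active complex, read 8.66 and 8.63 in SUP-B8 GSK126 arrays and 8.47 and 8.60 in SUP-B8 DMSO arrays. It read 8.74 and 8.74 in NALM-6 GSK126 arrays and 8.64 and 8.75 in NALM-6 DMSO arrays, so the NALM-6 treatments overlapped. The response was 0.11 ± 0.06 in arrays labelled SUP-B8 (limma, adjusted p = 0.400) and 0.04 ± 0.06 in those labelled NALM-6. The line difference under DMSO was -0.16 ± 0.06 (limma, adjusted p = 0.0426). That call was lost without SUP-B8 DMSO replicate 1 (-0.10, adjusted p = 0.218) or NALM-6 DMSO replicate 2 (-0.11, adjusted p = 0.215), and in 4 other omissions of an array. It was also lost without the filter, with arrays centred on their medians, with a trended robust prior and with only the DMSO arrays (adjusted p between 0.0568 and 0.0961), and over all probe sets (limma, adjusted p = 0.102).

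**Figure D2:**
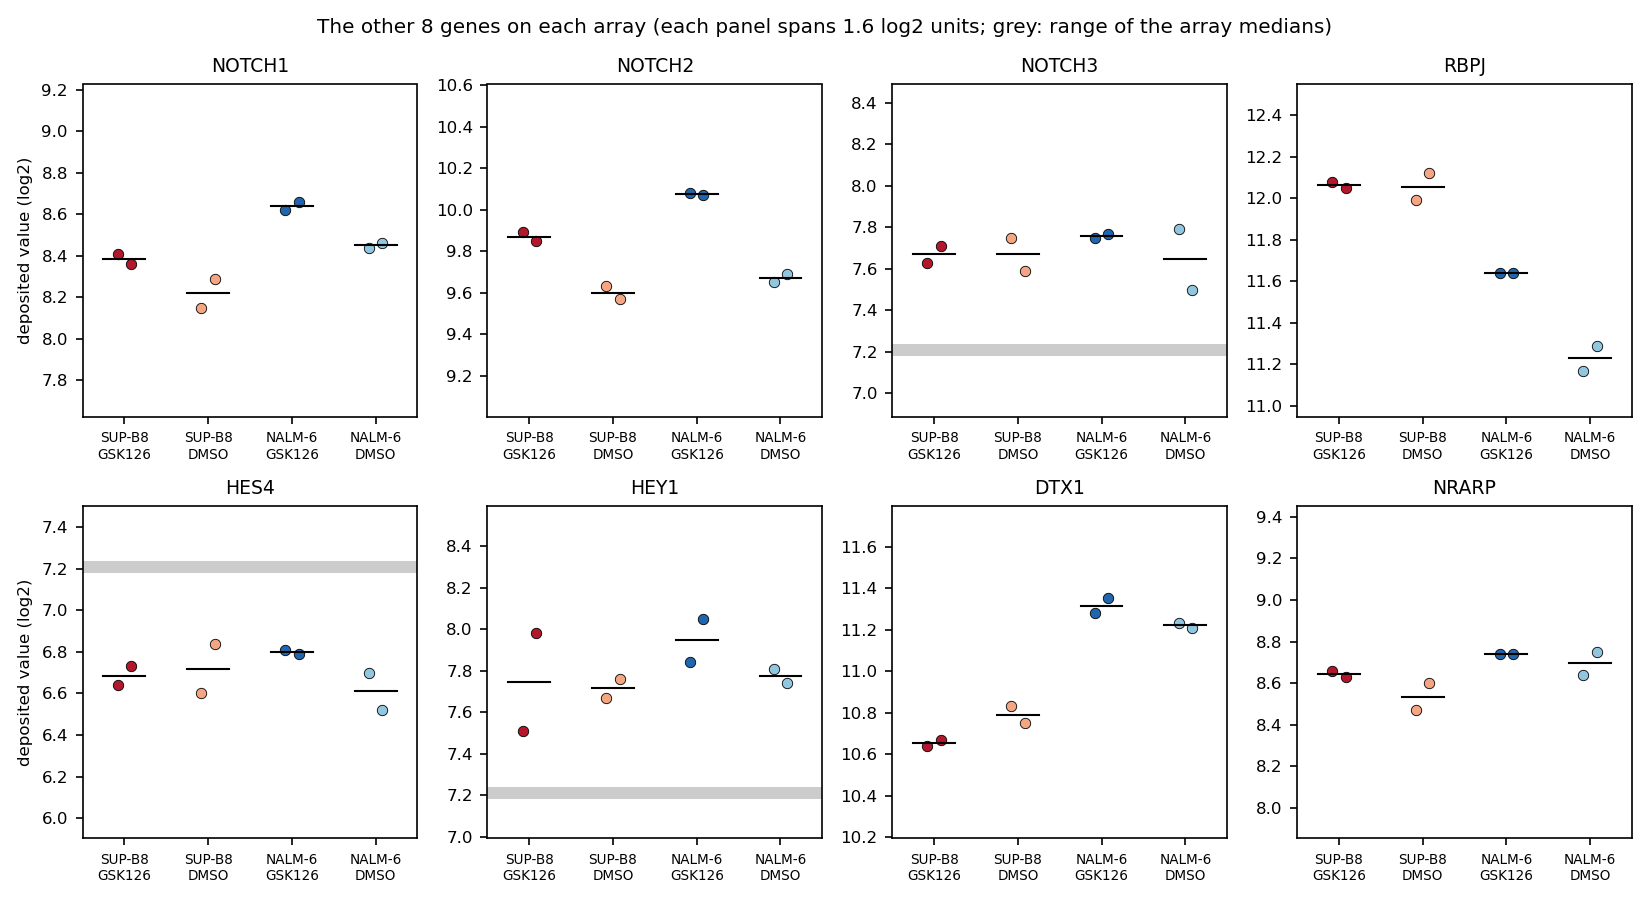
Level on each array (y axis, deposited log2 value) of the brightest probe set of the other 8 genes, by labelled line and treatment. Points are arrays and black lines are means of 2 arrays. The grey band, where in range, marks the array medians, 7.18 to 7.24. RBPJ, DTX1 and NOTCH1 separate the lines, and HES4 lies below the band on all 8 arrays. NOTCH2, NOTCH1 and DTX1 separate the treatments in both lines, DTX1 with opposite signs. How many of all genes do so was not counted, so nothing is read from such separation.

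HES1 is left out of the counts that follow, since the filter fixed that it had to differ. Under DMSO the lines differed for 4 of the other 7 genes tested, 1 higher (RBPJ) and 3 lower (DTX1, NOTCH1 and NRARP) in arrays labelled SUP-B8. Of all genes, 68.3% were called in that comparison, 37.8% higher and 30.6% lower. In arrays labelled NALM-6, the fit called 3 of these 7 between the treatments (RBPJ, NOTCH2 and NOTCH1), and 39.3% of all genes, a share from which nothing is read about the members. The call for NOTCH1 was lost in 6 of 8 omissions of an array. The differences of the 7 had a median of 0.17, with 0.02 over all genes, and in arrays labelled SUP-B8 a median of 0.03, with -0.02 over all genes.

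**Figure D3:**
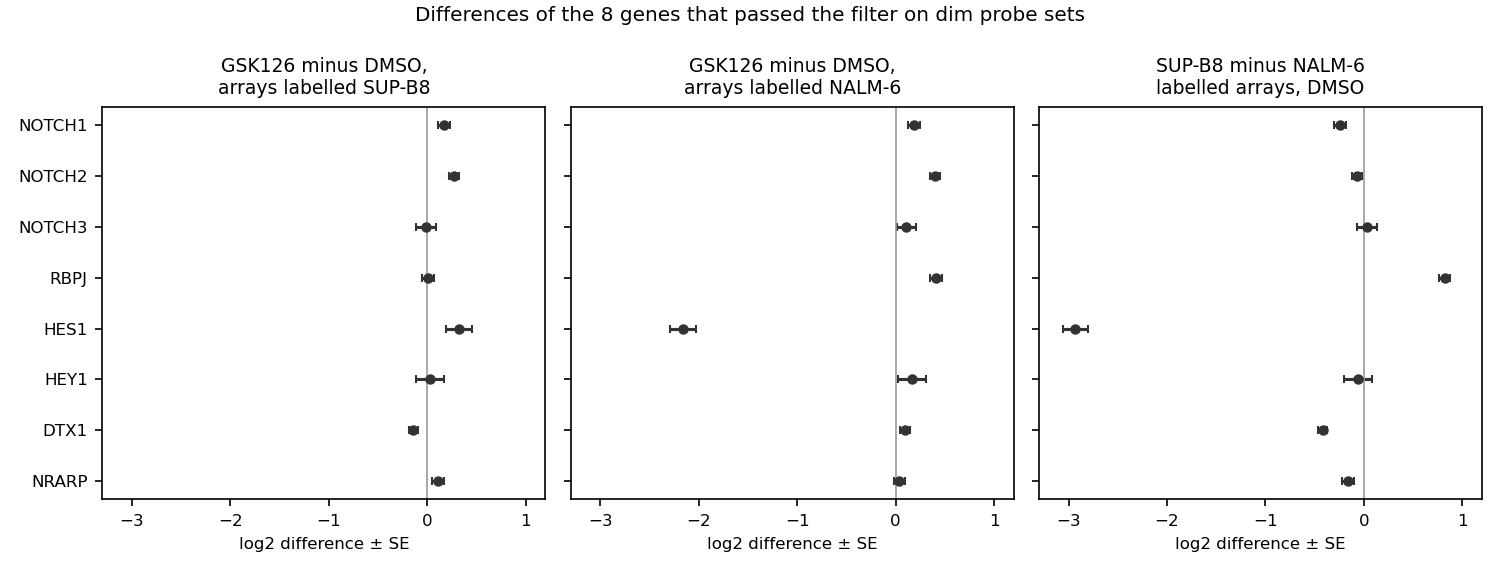
Log2 difference with its SE (x axis) for the 8 genes that passed the filter, in 3 comparisons. HES1 is the only one beyond 1 log2 unit, at -2.16 in arrays labelled NALM-6 and -2.93 between the lines, both measured against a group below the array medians.

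The responses of the 2 lines were also set against each other. For HES1 no such difference could be measured, since both SUP-B8 groups and the NALM-6 GSK126 group lay below the medians. For RBPJ the SUP-B8 response minus the NALM-6 response was -0.40 ± 0.09. It lay between -0.23 and 0.07 for the other 6 genes tested. For DTX1 it was -0.23 ± 0.07. Of the 7 genes other than HES1 the fit called 1, RBPJ, and it called 25.4% of all genes.

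**Figure D4:**
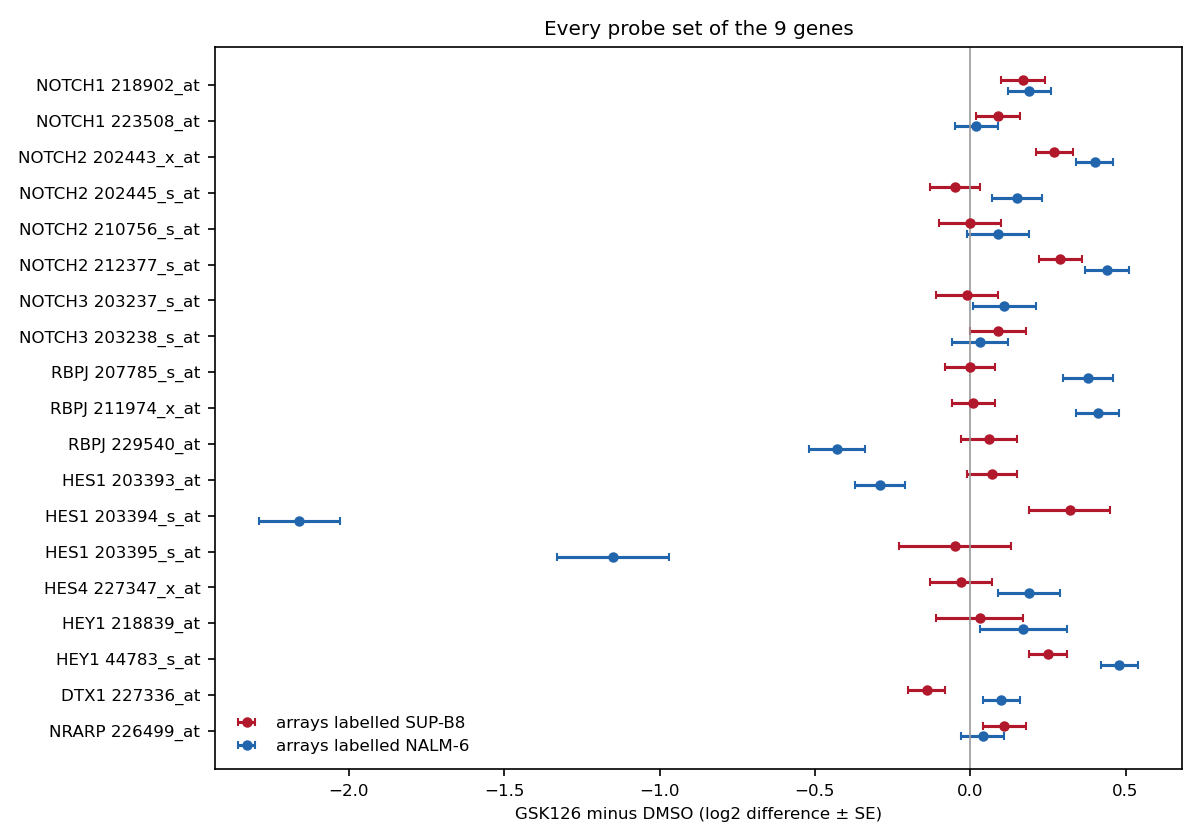
Log2 difference between GSK126 and DMSO arrays with its SE (x axis) for each of the 19 probe sets, for arrays labelled SUP-B8 and NALM-6. All 3 HES1 probe sets lie below 0 in arrays labelled NALM-6, while 1 RBPJ probe set, 229540_at, lies opposite to the other two.

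The genes nearest to HES1 in pattern were sought by the Euclidean distance between values centred on each gene's own mean over the 8 arrays. They were ACTN2 (distance 0.468), LTA (0.583), CCL4 (0.664), GPR137B (0.681) and MPEG1 (0.743). LTA, which encodes the cytokine lymphotoxin alpha, averaged 8.04 in NALM-6 GSK126 arrays and 10.04 in NALM-6 DMSO arrays. In arrays labelled SUP-B8 LTA averaged 7.10 with GSK126 and 6.94 with DMSO. The nearest genes were picked for likeness on the same 8 arrays, so their pattern is no separate result. HES1 itself lay below the medians in every group but NALM-6 DMSO. For RBPJ, the other member with the widest range, the nearest were MAP4 (0.104), CLK2 (0.108), NPIPA1 (0.128), R3HCC1 (0.132) and LRRC8B (0.134).

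Beyond the 9 members, 74 genes of the pathway were listed by role and 62 were tested. In arrays labelled SUP-B8, limma called 0 of the 62 between the treatments, against 2.25% of all genes, with a median difference of 0.00 against -0.02. An unadjusted p under 0.05 was found for 16 of the 62 and for 2198 of the 13161 genes. Their differences with GSK126 ran between -0.26 for HEYL and 0.63 for the growth factor receptor IGF1R. TLE1, a Groucho-type corepressor that HES proteins recruit, came nearest to the threshold, at 0.44 ± 0.09 (limma, adjusted p = 0.0503). The other largest values of each role were -0.17 for DLL4, -0.14 for NOTCH4, 0.19 for APH1B, -0.15 for MFNG, -0.16 for MAML1, 0.25 for DTX4 and 0.34 for HEY2.

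In arrays labelled NALM-6, 14 of the 62 rose and 15 fell with GSK126, and 20.8% and 18.5% of all genes did so. IL2RA, 1 of those called higher, passed the filter only through its NALM-6 GSK126 arrays and so had to differ there. Without it, 13 of 61 rose and 15 fell. None of the 4 ligands tested was called by limma, nor had any an unadjusted p under 0.05, and JAG2 had the largest difference, 0.13 ± 0.09. Of the 7 proteases and gamma-secretase subunits tested, ADAM17, which sheds the outer part of the receptor, fell by 0.28 (SE 0.05). The glycosyltransferases LFNG, a Fringe enzyme that changes which ligands a receptor answers to, and POGLUT1 rose by 0.36 ± 0.07 and 0.31 ± 0.06, 2 of 5 tested.

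The coactivators were split, with 1 called higher and 4 lower of 8. MAML3, a Mastermind coactivator, fell by 0.99 (SE 0.06), with 8.89 ± 0.08 in NALM-6 GSK126 arrays and 9.87 ± 0.06 in NALM-6 DMSO arrays (SD, n = 2 each). MAML2 was called higher with both levels below the medians, so no size is given. Of 10 corepressors tested, TLE1 rose by at least 0.67 from below the medians, and 3 fell, among them TLE3 by 0.41 (SE 0.07).

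Among 12 ubiquitin ligases and trafficking genes, 3 rose and 3 fell. AAK1, a kinase of clathrin adaptors, rose by 1.30 ± 0.06, with 10.14 ± 0.06 in NALM-6 GSK126 arrays and 8.84 ± 0.06 in NALM-6 DMSO arrays (SD, n = 2 each). ITCH, a ligase that acts on Notch, fell by 0.43 (SE 0.07). Of 5 other HES and HEY genes, HEY2 rose by 0.99 ± 0.10 and HES6 by 0.38 ± 0.06. HEY2 averaged 9.78 ± 0.01 in NALM-6 GSK126 arrays and 8.80 ± 0.22 in NALM-6 DMSO arrays (SD, n = 2 each). Of 10 genes reported elsewhere as Notch targets, 5 rose and 4 fell, with IL2RA counted among the 5. IL2RA, the interleukin-2 receptor alpha chain, averaged 8.15 ± 0.02 in NALM-6 GSK126 arrays and 6.86 ± 0.02 in NALM-6 DMSO arrays (SD, n = 2 each), and its other groups also lay below the medians. That is a difference of at least 0.95, given as a description. IGF1R rose from below the medians to 7.30 ± 0.11 in NALM-6 GSK126 arrays (SD, n = 2). Its limit of 0.10 is smaller than that SD, so no size is shown.

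**Figure D5:**
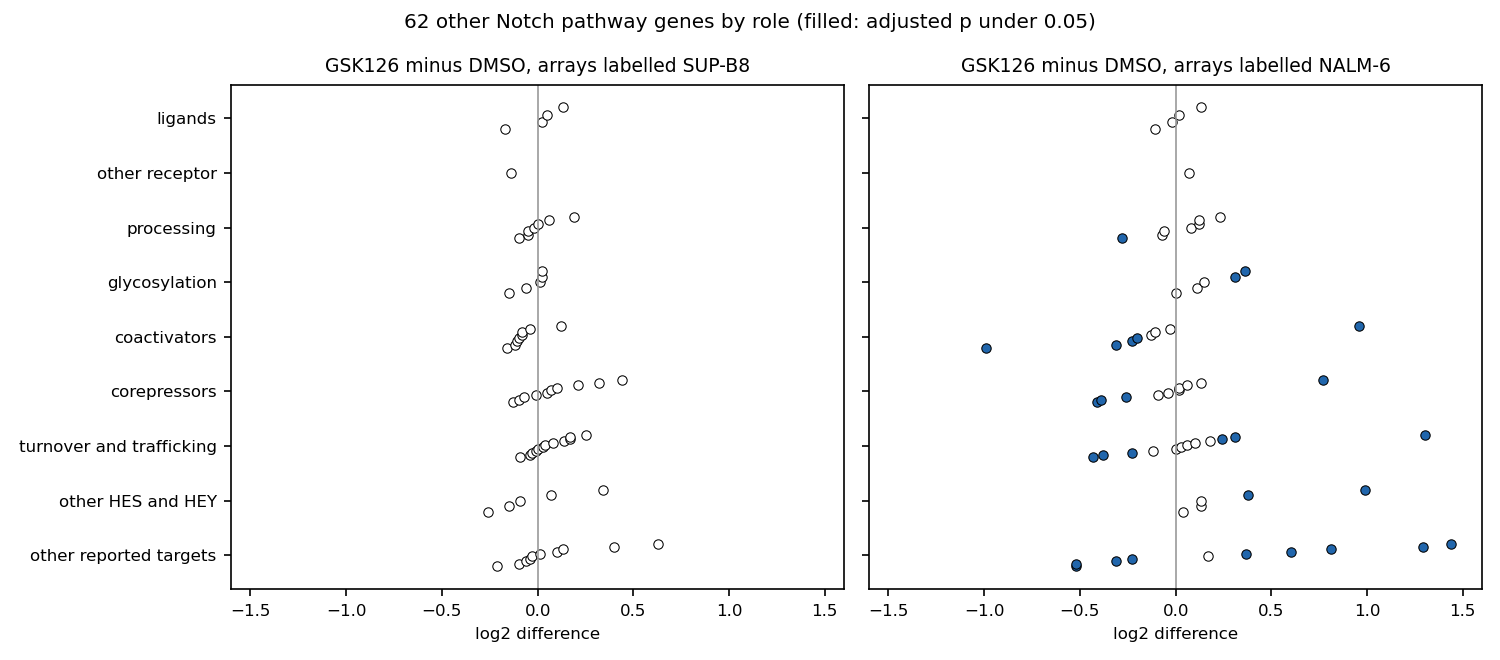
Log2 difference between GSK126 and DMSO arrays (x axis) for 62 other pathway genes, by role, in arrays labelled SUP-B8 and NALM-6. Each point is a gene, and filled points had an adjusted p under 0.05. There are 0 filled points for arrays labelled SUP-B8 and 29 for those labelled NALM-6, on both sides of 0, with IL2RA among the 29.

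Under DMSO, 28 of the 61 genes other than IL2RA were higher and 20 lower in arrays labelled SUP-B8, against 37.8% and 30.6% of all genes. The ligand DLL3 was lower by 1.33 on the log2 scale (SE 0.07), at 7.98 ± 0.01 in arrays labelled SUP-B8 and 9.31 ± 0.06 in those labelled NALM-6 (SD, n = 2 each), and JAG2 differed by -0.59 ± 0.09. Among receptors and processing genes, NOTCH4 differed by 0.24 ± 0.08, ADAM17 by -0.58 ± 0.05 and the gamma-secretase subunit PSENEN by 0.53 ± 0.06. NOTCH4 lay close to the array medians, at 7.37 ± 0.03 in arrays labelled SUP-B8 and 7.13 ± 0.11 in those labelled NALM-6 (SD, n = 2 each). POGLUT1 differed by -0.85 ± 0.06 and MFNG by 0.82 ± 0.05.

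The Mastermind genes again differed in direction between these lines, with MAML2 higher by at least 1.66 and MAML3 at -1.41 ± 0.06 in arrays labelled SUP-B8. The corepressors CTBP2 and TLE4 were higher there, at 4.76 ± 0.18 and 2.64 ± 0.07. For CTBP2, 1 of the 2 NALM-6 DMSO arrays lay below its median. AAK1 differed by 1.61 ± 0.06, DTX3L by 1.16 ± 0.05, HEY2 by -0.98 ± 0.10 and HES6 by 0.41 ± 0.06. Of the reported targets, GATA3, a T-lineage transcription factor, was higher by at least 3.42, and NFKB2 differed by -3.40 ± 0.06.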

How the data were processed

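The values are those the authors deposited, in log2, for 54675 probe sets on each of 8 arrays. The submitters' processing notes name MAS5 and RMA; which step used which, and their versions, are not given in the sources used here. These deposited log2 values were taken as normalized between arrays, judged from their like distributions, and were not transformed. Names came from the platform annotation, in which 41097 had 1 symbol and 1801 several. Each of 19775 genes was represented by its single-symbol probe set of highest mean, and a gene was tested if at least 2 arrays exceeded their array's median, which left 13161. Limma version 3.58.1 in R version 4.3.3 fitted 1 mean per group with moderated variances, and Benjamini-Hochberg adjusted p under 0.05 was called. The procedure was tested on simulated data.

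With 2 arrays a group, their number limits the precision, and all calls rest on the model. Replicates correlated at 0.9977 to 0.9982 over all probe sets. Members and lists were chosen with earlier results of these data known. All members are named, and from each role list up to 2 called genes of largest size per comparison, or the largest where none was called. HEYL in arrays labelled SUP-B8 and the levels of LTA were singled out after their values were seen. Of the pathway genes listed, DLL1, DLK1, PSEN2, HES5 and CCND1 were too dim to be tested, and the other untested ones were not analysed here. Promoter letters are RefSeq's (GRCh38.p14), with windows used for 7 of the members. No genome build is named for the deposited table, so its probe sets carry no coordinates, and only the RefSeq windows do. Alternatives covered the filter, the probe set per gene, the normalization, the variance prior, a replicate block, fits to fewer groups and the omission of each array.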

Additional observations from a re-analysis of the deposited data

Results flagged for a closer look

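For RBPJ the SUP-B8 response minus the NALM-6 response was -0.40, past the fit's threshold, with overlapping treatments in arrays labelled SUP-B8. For HES1 the fit gave 2.49, but only the NALM-6 DMSO arrays lay above the array medians, so no response could be measured in arrays labelled SUP-B8 and no difference between the lines in the effect of GSK126 is shown. The HES1 response in arrays labelled NALM-6 was also known beforehand, and both values are descriptions. With groups of 2 arrays, no array could be tested as an outlier within its group.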

How the results depend on the processing

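On the probe set reported for each member, or on the mean of a member's probe sets, no called difference changed sign. Tested one by one, the RBPJ probe set 229540_at was called opposite to the reported one, at -0.43 in arrays labelled NALM-6, -0.32 between the lines and 0.49 for the difference of responses, each against groups below the medians. Outside the omissions of an array, 254 of 276 single values kept their side of the threshold. In arrays labelled SUP-B8, 296 genes were called, but 160 without a filter, 777 with a trended robust prior, 191 with only the contrast's arrays, 181 of all probe sets tested one by one, and 27 to 217 on leaving out an array. The member call there, NOTCH2, was lost (1 called as reported, 0 then) without a filter, with the mean of probe sets, with only the contrast's arrays, with all probe sets, with the replicate block and in all 8 omissions (0 to 0). Tested over all probe sets, the calls numbered 11227 in arrays labelled NALM-6 (5178 genes as reported), 5969 for the difference of responses (3343) and 23839 between the lines (8990), since more features were tested. For the difference of responses, 1 member besides HES1 was called as reported, RBPJ. HES1 is not counted, since the filter fixed that it had to differ. The RBPJ call was lost without SUP-B8 GSK126 replicate 2, and DTX1 moved from -0.23 to -0.27 without SUP-B8 DMSO replicate 2. With the mean of its probe sets, RBPJ was no longer called in that difference (-0.10) or in arrays labelled NALM-6 (0.12). HEY1 was then called there (0.32). DTX1, not called as reported, was called for the difference of responses at -0.23 in some other settings. These were the mean of probe sets, the trended robust prior, and only genes above the medians on all 8 arrays. Labels do not tie replicate numbers to a shared batch, and the deviations of same-numbered arrays correlated at -0.199 to 0.13 over 6 pairs of groups. The replicate block gave 202 calls in arrays labelled SUP-B8 and 4972 in those labelled NALM-6. Limits are 2 arrays a group, no detection calls, and HES1 levels below the array medians in 3 of the 4 groups. The cause of these changes was not tested.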

Other observations

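A further probe set, 227067_x_at, is annotated to NOTCH2 together with NOTCH2NLA, NOTCH2NLB, NOTCH2NLC and NOTCH2NLR, partial copies of NOTCH2, and was left out above. It read 8.98 and 8.80 in SUP-B8 GSK126 arrays and 8.62 and 8.60 in SUP-B8 DMSO arrays. It read 10.89 and 10.88 in NALM-6 GSK126 arrays and 11.08 and 11.24 in NALM-6 DMSO arrays. The line difference under DMSO was -2.55 ± 0.08 (SUP-B8 minus NALM-6, limma over all probe sets, adjusted p = 1.76e-08), where the 4 probe sets of NOTCH2 alone gave between -0.16 and 0.05. With GSK126 this shared probe set differed by -0.28 ± 0.08 in arrays labelled NALM-6, a description as for the members. That is opposite in sign to 202443_x_at and 212377_s_at, at 0.40 and 0.44. Of the remaining NOTCH2 probe sets, 210756_s_at gave 0.09 ± 0.10, and 202445_s_at lay below the medians on all 8 arrays.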
